A study of Homo sapiens with 18 samples.

Results

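The negative-feedback genes of the ERK pathway were followed in prostate cancer cells depleted of emerin, a protein of the inner nuclear envelope whose gene is EMD. They are 10 genes chosen by symbol: the dual-specificity phosphatases DUSP1, DUSP4, DUSP5, DUSP6 and DUSP10, the Sprouty genes SPRY1, SPRY2 and SPRY4, and the Sprouty-related genes SPRED1 and SPRED2. Each was found once by symbol in the DU145 table and by Ensembl identifier in the others, which hold 22360 genes for C4-2B, 25716 for 22Rv1 and 37256 for DU145. RNA was sequenced from EMD knockdown and control cells of each line, with 3 libraries per group and 18 in all. C4-2B is an androgen-independent, bone-homing subline of LNCaP, 22Rv1 was derived from a xenograft that regrew after castration, and DU145 came from a metastasis in the brain. C4-2B and 22Rv1 were kept in RPMI-1640 and DU145 in DMEM, each with serum. By the labels, knockdown cells received EMD siRNA and control cells a scramble siRNA, both by lipofection, and the mix was taken off after 24 h. The DU145 knockdown libraries are named shEMD, the usual mark of a hairpin vector, so the reagent in that line is uncertain. Time of harvest is not given in the sources used here, and nothing says that replicates were separate cultures, so p-values measure the spread between these libraries only.

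Growth factor receptors switch on RAS, which activates the kinases RAF, MEK and ERK in turn. Active ERK then raises transcription of its own inhibitors: dual-specificity phosphatases remove phosphate from the activation loop of ERK and its relatives JNK and p38, while Sprouty and Spred proteins act further up, between receptor and RAF. Levels of DUSP6, SPRY2 and SPRY4 RNA are therefore often read as a record of ERK output, and SPRY1 and SPRY2 have been described as reduced in prostate tumours. In mouse heart, loss of emerin has been linked to higher ERK activity. Here RNA alone was measured, and neither phosphorylated ERK nor any protein.

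Library totals ran from 14722733 to 43311727 reads. EMD fell in each line, with log2 fold changes of -3.07 ± 0.11 in C4-2B, -1.73 ± 0.07 in 22Rv1 and -3.21 ± 0.08 in DU145 (SE; edgeR adjusted p = 3.37e-14, 4.29e-14 and 1.67e-22). Levels below are CPM, the reads of a gene scaled to a common library size by the trimmed mean of M values (TMM) within a line, and a gene is said to rise or fall where its edgeR p, adjusted over all genes tested in that line, was below 0.05. Each fold change is given with its SE as log2 of knockdown divided by control. Line, batch label, table and, for DU145, medium coincide and cannot be told apart, so levels in different lines stand side by side without a test. The share of reads from mitochondrial genes moved with knockdown in every line, without overlap: it was 4.27% to 4.89% in knockdown and 5.91% to 6.38% in control libraries of C4-2B, 1.45% to 1.54% in knockdown and 0.964% to 1.20% in control libraries of 22Rv1, and 7.11% to 7.35% in knockdown and 8.94% to 9.12% in control libraries of DU145. In 22Rv1, 20787 to 21561 genes had reads in knockdown libraries and 21662 to 23185 in control libraries. Knockdown 3 of DU145 stood apart from knockdown 1 and 2, with a chi-square per degree of freedom of 5.27 and 6.14 against them, beside 2.28 between those libraries. Pairs of 22Rv1 control libraries gave 5.32 to 8.70, the highest value of any pair, beside 2.48 to 2.57 between 22Rv1 knockdown libraries.

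All 6 markers of luminal prostate cells and all 4 epithelial markers (EPCAM, KRT8, KRT18, CDH1) had reads in each line. In C4-2B the luminal markers summed to between 3924 and 4071 CPM in knockdown and between 4564 and 4608 CPM in control libraries, and the epithelial markers to between 1639 and 1673 CPM in knockdown and between 1488 and 1544 CPM in control. FOLH1, which encodes prostate-specific membrane antigen, went against the luminal sum of C4-2B, at 1696 ± 31.4 CPM in knockdown and 1290.4 ± 2.47 CPM in control cells (SD, n = 3 each). In 22Rv1, where 7 members fell, luminal markers summed to between 933 and 957 CPM in knockdown and between 1285 and 1352 CPM in control libraries, and epithelial markers to between 1322 and 1351 CPM in knockdown and between 1686 and 1767 CPM in control. In DU145 the luminal sums were low, between 18.2 and 19.4 CPM in knockdown and between 24.8 and 26.1 CPM in control. Epithelial markers of DU145 summed to between 1006 and 1102 CPM in knockdown and between 2041 and 2203 CPM in control. Most of that difference was KRT8, at 403 ± 21.5 CPM in knockdown and 1243 ± 49.0 CPM in control cells. KRT18 was also lower in knockdown, at 534 ± 19.4 CPM against 773 ± 31.7 CPM in control (-0.53 ± 0.05, edgeR adjusted p = 6.42e-10). So was CDH1, at 5.04 ± 0.492 CPM against 22.6 ± 0.506 CPM (-2.17 ± 0.08, edgeR adjusted p = 4.72e-18). EPCAM was higher in knockdown, at 108 ± 8.75 CPM against 72.5 ± 2.54 CPM in control (0.57 ± 0.06, edgeR adjusted p = 3.74e-09). FOLH1 in C4-2B and these markers in DU145 were singled out after their values were seen. The part of these shifts, and of those in mitochondrial reads, in the results below was not tested. Fibroblast and blood markers summed to at most 3.04 CPM in any library, and endothelial markers to at most 1.62 CPM in 22Rv1 and DU145. In C4-2B endothelial markers summed to between 12.5 and 14.5 CPM in knockdown and between 20.2 and 22.6 CPM in control libraries. Nearly all of that sum was VWF, at 13.6 ± 1.04 CPM in knockdown and 21.5 ± 1.23 CPM in control cells. CDH5 held 4 reads in knockdown and 5 in control libraries of C4-2B, and PECAM1 had no reads listed. In RNA from whole cultures, fewer cells of a type and less RNA per cell cannot be told apart.

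The feedback genes did not move as a block. In C4-2B, 3 of 9 tested members rose and 1 fell, where 41.7% of all tested genes were called (19.4% up, 22.3% down; rises made up 46.6% of calls, and 57.0% with library totals in place of TMM). In 22Rv1, 2 of 10 rose and 7 fell, where 67.8% of all tested genes were called (33.5% up, 34.3% down). In DU145, 4 rose and 4 fell, where 47.6% were called (24.1% up, 23.6% down). The median log2 fold change of the tested members was 0.09 in C4-2B, -0.53 in 22Rv1 and 0.12 in DU145, beside 0.01, -0.0038 and 0.01 for all tested genes. No member passed the test in the same direction in every line. Knockdown and control libraries did not overlap for 4 members in C4-2B, 9 in 22Rv1 and 8 in DU145, where 50.5%, 71% and 54.8% of all tested genes had groups apart. At least 2-fold changes were seen for DUSP4 in C4-2B, for DUSP5 and DUSP6 in 22Rv1 and for DUSP4 and DUSP10 in DU145, that is 1, 2 and 2 members, where 6.63%, 18.4% and 8.22% of all tested genes changed that much.

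**Figure D1:**
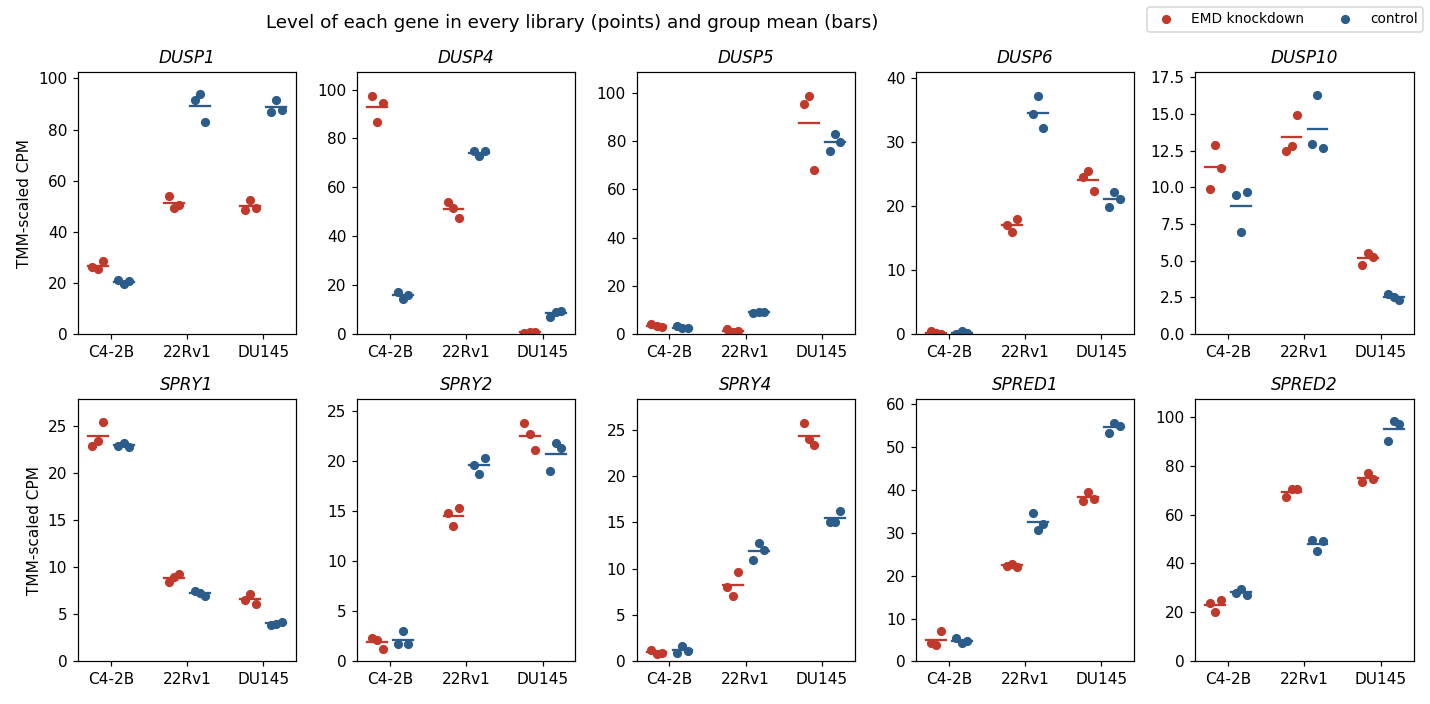
TMM-scaled CPM (linear axis from 0) of each of the 10 genes in every library, with EMD knockdown in red left of control in blue, 3 libraries (points) and their mean (bar) per group. DUSP4 stood near 93 CPM in C4-2B knockdown and below 1 CPM in DU145 knockdown, while DUSP6 was below 1 CPM in each C4-2B library.

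**Figure D2:**
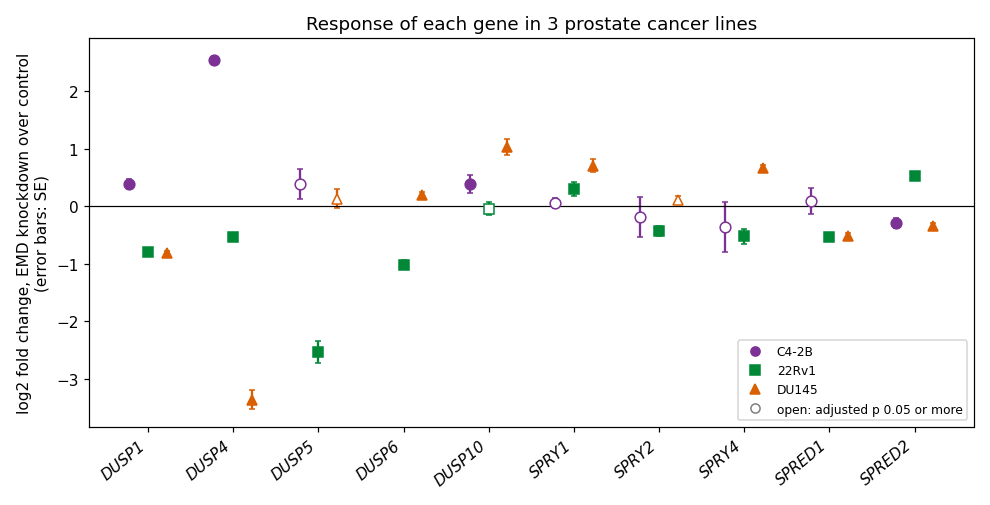
Log2 fold change of EMD knockdown over control for each gene, with SE bars, in C4-2B (circles), 22Rv1 (squares) and DU145 (triangles); filled symbols passed an edgeR adjusted p of 0.05 and open ones did not, and DUSP6 was not tested in C4-2B. DUSP4 spans from 2.55 in C4-2B to -3.36 in DU145.

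DUSP4 gave the widest contrast. It encodes an inducible nuclear phosphatase of ERK and JNK and lies on chromosome 8 (ENSG00000120875, 29333064 to 29350668, minus strand, GRCh38). In C4-2B its level was 97.3, 86.8 and 94.3 CPM in knockdown libraries and 17.3, 14.6 and 16.0 CPM in controls, a rise of 2.55 ± 0.07 (edgeR adjusted p = 3.56e-19). In DU145 it was 0.659, 0.911 and 0.924 CPM in knockdown libraries and 7.06, 9.01 and 9.31 CPM in controls, a log2 fold change of -3.36 ± 0.16 (edgeR adjusted p = 6.96e-16) that rests on 83 reads in knockdown and 839 reads in control, each summed over 3 libraries. Knockdown and control libraries were apart in both lines, in opposite directions. In 22Rv1 the knockdown libraries held 53.8, 51.6 and 47.6 CPM and the controls 74.9, 72.7 and 74.8 CPM (-0.54 ± 0.05, edgeR adjusted p = 2.65e-08). Among controls, 22Rv1 thus held most DUSP4 and DU145 least, and after knockdown C4-2B held most.

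DUSP1 fell in 22Rv1 and DU145 and rose in C4-2B. It encodes an immediate-early nuclear phosphatase that acts on p38, JNK and ERK (ENSG00000120129, chromosome 5, 172768090 to 172771195, minus strand). Its knockdown libraries held 54.1, 49.4 and 50.6 CPM in 22Rv1, against 91.4, 94.0 and 82.8 CPM in controls (-0.79 ± 0.06, edgeR adjusted p = 1.66e-10). In DU145 they held 48.7, 52.5 and 49.4 CPM, against 86.8, 91.7 and 87.5 CPM in controls (-0.82 ± 0.05, edgeR adjusted p = 1.58e-13). C4-2B held less DUSP1, with 26.2, 25.4 and 28.6 CPM in knockdown and 21.2, 19.5 and 20.9 CPM in control libraries (0.38 ± 0.09, edgeR adjusted p = 0.00101). Knockdown and control libraries of DUSP1 did not overlap in any line.

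DUSP5 and DUSP6 encode phosphatases selective for ERK, DUSP5 in the nucleus (ENSG00000138166, chromosome 10, 110497838 to 110511544, plus strand) and DUSP6 in the cytoplasm (ENSG00000139318, chromosome 12, 89347232 to 89353271, minus strand). Both fell in 22Rv1. DUSP5 stood at 2.03, 1.04 and 1.47 CPM in 22Rv1 knockdown libraries and at 8.86, 9.31 and 9.24 CPM in controls (-2.54 ± 0.19, edgeR adjusted p = 3.27e-10). DUSP6 stood at 17.1, 16.0 and 17.9 CPM in 22Rv1 knockdown libraries and at 34.4, 37.1 and 32.2 CPM in controls (-1.02 ± 0.08, edgeR adjusted p = 4.55e-10). Neither gene's groups overlapped there. In 22Rv1, genes of 2 to 10 CPM, the range of DUSP5, had a median log2 fold change of -0.33, and the part of that shift in the fall of DUSP5 was not tested. DUSP5P1, a processed pseudogene of DUSP5 with which counting could exchange reads, held 79 reads in knockdown and 166 in control libraries of 22Rv1, beside 92 and 701 of DUSP5.

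In DU145 neither DUSP5 nor DUSP6 fell. DUSP6 held 24.5, 25.5 and 22.3 CPM in knockdown and 19.9, 22.1 and 21.2 CPM in control libraries (0.19 ± 0.07, edgeR adjusted p = 0.0201), a small rise whose call was lost with DESeq2 (adjusted p = 0.118), in the edgeR fit of all 18 libraries (0.0920), without knockdown 2 (0.185) and without control 1 (0.0952). DUSP5 held 95.3, 98.7 and 68.1 CPM in knockdown and 76.0, 83.0 and 79.5 CPM in control libraries (0.13 ± 0.17, edgeR adjusted p = 0.597). The third knockdown library lay below the controls while the other 2 lay above them, and without knockdown 3 the fold change was 0.32 with an edgeR adjusted p of 2.22e-07. C4-2B carried almost no DUSP6, at 0.472, 0.168 and 0.0608 CPM in knockdown and 0, 0.419 and 0.121 CPM in control libraries, or 11 reads in each group, too few to be tested. DUSP5 was also low in C4-2B, at 3.49 ± 0.663 and 2.70 ± 0.473 CPM in knockdown and control cells (SD, n = 3 each; 0.38 ± 0.26, edgeR adjusted p = 0.264). An antisense gene, AC024909.2, shares 1875 exon bases with DUSP6 in GENCODE 29 and held 9 reads in C4-2B, 119 in 22Rv1 and 63 in DU145. Strandedness is not given in the sources used here, so reads of the antisense partner and of DUSP6 cannot be told apart.

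DUSP10, a phosphatase that prefers JNK and p38 over ERK (ENSG00000143507, chromosome 1, 221701424 to 221742176, minus strand), rose in DU145. Its level was 4.72, 5.54 and 5.23 CPM in DU145 knockdown libraries and 2.72, 2.56 and 2.31 CPM in controls (1.03 ± 0.14, edgeR adjusted p = 4.56e-07), with no overlap. In C4-2B it was 9.91, 12.9 and 11.3 CPM in knockdown libraries and 9.46, 6.97 and 9.66 CPM in controls (0.39 ± 0.15, edgeR adjusted p = 0.0424). That call was lost with DESeq2 (adjusted p = 0.0741) and, in edgeR, without knockdown 2 (0.209), knockdown 3 (0.0888) or control 2 (a fold change of 0.25, adjusted p = 0.222). In 22Rv1 the libraries overlapped, at 13.4 ± 1.34 CPM in knockdown and 14.0 ± 2.02 CPM in control cells (SD, n = 3 each; -0.05 ± 0.11, edgeR adjusted p = 0.725).

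Per kilobase of GENCODE 29 exons, which allows levels of different genes to be set side by side, the make-up of the phosphatase pool shifted in a different way in each line. The 5 phosphatases summed to 31.3 CPM per kilobase in C4-2B knockdown and 16.4 in C4-2B control cells, and DUSP4 made up 40.8% of that sum in knockdown against 13.4% in control. In 22Rv1 they summed to 41.3 in knockdown and 70.2 in control cells, and DUSP1 kept the largest share, 61.6% against 63.0%. In DU145 they summed to 65.4 in knockdown and 80.9 in control cells. There DUSP5 made up 51.1% in knockdown against 37.6% in control, and DUSP1 made up 38.04% against 54.3%. These are means of 3 libraries and a description only.

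**Figure D3:**
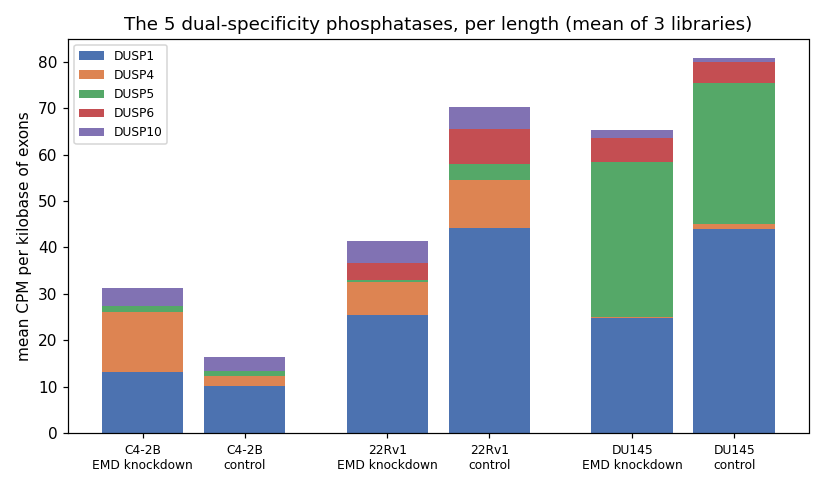
Mean CPM per kilobase of exons (3 libraries per bar, linear axis from 0) of the 5 dual-specificity phosphatases, stacked, for EMD knockdown left of control in each line. The stack is taller in knockdown (31.3) than in control (16.4) in C4-2B, and shorter in knockdown in 22Rv1 (41.3 against 70.2) and DU145 (65.4 against 80.9).

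SPRY4 and SPRY1 rose in DU145, where SPRY2 did not pass the test. SPRY4 (ENSG00000187678, chromosome 5, 142310427 to 142326455, minus strand), an inhibitor of receptor signalling to RAS, held 25.7, 24.0 and 23.4 CPM in DU145 knockdown and 15.0, 15.1 and 16.2 CPM in control libraries (0.66 ± 0.07, edgeR adjusted p = 2.57e-09). SPRY1 (ENSG00000164056, chromosome 4, 123396795 to 123403760, plus strand), of the same family, held 6.48, 7.15 and 6.13 CPM in knockdown and 3.91, 3.97 and 4.21 CPM in control libraries (0.70 ± 0.11, edgeR adjusted p = 7.99e-06). Groups of both genes were apart. SPRY2 (ENSG00000136158, chromosome 13, 80335976 to 80340951, minus strand), which binds GRB2 and the ubiquitin ligase CBL, held 23.8, 22.7 and 21.1 CPM in knockdown and 19.0, 21.8 and 21.3 CPM in control libraries (0.11 ± 0.07, edgeR adjusted p = 0.18), and passed without knockdown 3 (0.19, edgeR adjusted p = 0.0149) and with library totals in place of the trimmed mean (0.16, edgeR adjusted p = 0.0393).

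In 22Rv1 SPRY2 and SPRY4 fell while SPRY1 rose slightly. SPRY2 stood at 14.8, 13.5 and 15.3 CPM in 22Rv1 knockdown and 19.6, 18.7 and 20.3 CPM in control libraries (-0.43 ± 0.09, edgeR adjusted p = 0.000246). SPRY4 stood at 8.03, 7.04 and 9.65 CPM in knockdown and 10.9, 12.7 and 12.1 CPM in control libraries (-0.53 ± 0.13, edgeR adjusted p = 0.000937). Neither overlapped between groups. SPRY1 stood at 8.39, 8.93 and 9.30 CPM in knockdown and 7.43, 7.25 and 7.00 CPM in control libraries (0.29 ± 0.12, edgeR adjusted p = 0.0402). This last call is marginal: the adjusted p was 0.131 with library totals, 0.0747 without a filter on low counts and 0.0983 with DESeq2. It was also lost without knockdown 2 (0.0701), knockdown 3 (0.122), control 1 (0.0573), control 2 (0.0638) or control 3 (0.109), in edgeR.

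C4-2B held another balance of Sprouty genes, with SPRY1 the most abundant per length. SPRY1 was at 23.9 ± 1.35 CPM in knockdown and 22.9 ± 0.249 CPM in control cells of C4-2B (SD, n = 3 each; 0.06 ± 0.09, edgeR adjusted p = 0.61). SPRY2 was at 1.92 ± 0.615 CPM in knockdown and 2.18 ± 0.745 CPM in control cells (-0.19 ± 0.35, edgeR adjusted p = 0.706), and SPRY4 at 0.988 ± 0.199 CPM in knockdown and 1.26 ± 0.383 CPM in control cells (-0.36 ± 0.43, edgeR adjusted p = 0.54), on 48 reads in knockdown and 75 in control. At these levels a modest change would not have been detectable. Per kilobase of exons, control cells of C4-2B held 5.79, 0.717 and 0.192 CPM of SPRY1, SPRY2 and SPRY4, those of 22Rv1 1.82, 6.44 and 1.81, and those of DU145 1.02, 6.81 and 2.35.

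Among controls, C4-2B held the lowest level of 7 members: DUSP1, DUSP5, DUSP6, SPRY2, SPRY4, SPRED1 and SPRED2. SPRY1 was highest in C4-2B and lowest in DU145, and DUSP4 and DUSP10 were highest in 22Rv1 and lowest in DU145. This order was the same with all 18 libraries scaled together, apart from DUSP1, whose control level was 89.2 CPM in 22Rv1 and 95.8 CPM in DU145 on that scale and whose libraries in those lines overlap on the scale within lines. The control libraries of SPRY2 also overlapped between 22Rv1 (18.7 to 20.3 CPM) and DU145 (19.0 to 21.8 CPM).

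Of all pairs of members, DUSP1 and SPRY1 had the lowest correlation (Pearson r = -0.80 over 18 libraries, levels centred within each line). They serve to show what lies in the 250 bases before an annotated start. RefSeq windows on GRCh38.p14 were found for 8 of the 10 members, 13 windows in all. Those of DUSP1 and of the upstream start of SPRY1 are printed because they contain no annotated exon, 5′ to 3′ along the gene's strand, with capitals for each cyclic AMP response element (CRE, TGACGTCA) or its half-site (TGACG), on either strand.
DUSP1, chr5:172771196-172771445, minus strand: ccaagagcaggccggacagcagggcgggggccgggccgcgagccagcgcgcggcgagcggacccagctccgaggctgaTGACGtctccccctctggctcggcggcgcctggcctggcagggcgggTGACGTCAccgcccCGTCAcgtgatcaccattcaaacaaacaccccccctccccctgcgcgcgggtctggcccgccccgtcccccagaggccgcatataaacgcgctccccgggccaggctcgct
SPRY1, chr4:123396545-123396794, plus strand: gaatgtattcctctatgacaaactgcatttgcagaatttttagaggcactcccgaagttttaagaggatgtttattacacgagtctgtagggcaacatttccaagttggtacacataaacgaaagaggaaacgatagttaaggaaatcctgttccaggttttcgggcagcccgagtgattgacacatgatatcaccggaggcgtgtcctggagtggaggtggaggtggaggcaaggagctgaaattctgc
The DUSP1 window holds 1 full CRE, which begins 125 bases before the start, and 4 half-sites, of which 2 lie within the CRE. A full CRE was found in 1 of the 13 windows of these genes and in 1.65% of 35116 windows of all genes. The half-site was found in windows of 3 genes (DUSP1, SPRY2 and SPRY4) and in 21.22% of all windows. The SPRY1 window holds neither, nor the AP-1 letters TGANTCA (6.57% of all windows) or the ETS letters CCGGAAG (8.52%), nor TATAAA or CCAAT; the other SPRY1 window holds the ETS letters. TATAAA stands 30 bases before the DUSP1 start and is in 10.72% of all windows, and CCAAT, absent from the DUSP1 window, in 32.01%. A match describes letters only, and its part in the responses was not tested.

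SPRED1 and SPRED2 encode membrane adaptors that bring neurofibromin, the GTPase-activating protein of RAS, to the membrane. SPRED1 (ENSG00000166068, chromosome 15, 38252326 to 38357249, plus strand) fell in 22Rv1 and DU145. It held 22.3, 22.8 and 22.1 CPM in 22Rv1 knockdown and 34.5, 30.7 and 32.0 CPM in control libraries (-0.54 ± 0.07, edgeR adjusted p = 1.13e-06). In DU145 it held 37.5, 39.5 and 37.98 CPM in knockdown and 53.2, 55.7 and 54.97 CPM in control libraries (-0.51 ± 0.05, edgeR adjusted p = 3.47e-09). In C4-2B it was low, with overlapping groups, at 5.07 ± 1.78 CPM in knockdown and 4.80 ± 0.695 CPM in control cells (SD, n = 3 each; 0.09 ± 0.23, edgeR adjusted p = 0.792).

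SPRED2 (ENSG00000198369, chromosome 2, 65310851 to 65432637, minus strand) rose in 22Rv1, against the direction of SPRED1. It held 67.2, 70.4 and 70.6 CPM in 22Rv1 knockdown and 49.5, 45.2 and 49.2 CPM in control libraries (0.53 ± 0.05, edgeR adjusted p = 3.43e-08). In DU145 it held 73.2, 76.9 and 74.3 CPM in knockdown and 90.1, 98.1 and 97.0 CPM in control libraries (-0.35 ± 0.05, edgeR adjusted p = 1.13e-06). Groups were apart in both lines. In C4-2B it held 23.9, 20.2 and 25.2 CPM in knockdown and 28.0, 29.7 and 27.3 CPM in control libraries (-0.30 ± 0.09, edgeR adjusted p = 0.0109), and the call was lost without knockdown 2 (-0.21, edgeR adjusted p = 0.0972).

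Whether responses differed between lines was tested as the difference of log2 fold changes in 1 edgeR fit of all 18 libraries over 17152 genes. Responses differed for 6 of 10 members between C4-2B and 22Rv1, where 56.1% of all genes differed, for 6 between C4-2B and DU145, where 45.7% did, and for 8 between 22Rv1 and DU145, where 55.6% did. DUSP4 differed in each pair: C4-2B less DU145 gave 5.91 ± 0.16 (edgeR adjusted p = 2.38e-24), C4-2B less 22Rv1 3.13 ± 0.11 (2.61e-22) and 22Rv1 less DU145 2.78 ± 0.17 (1.7e-15). DUSP6, SPRY2 and SPRY4, the usual readouts of ERK output, differed between 22Rv1 and DU145 by -1.27 ± 0.15 (edgeR adjusted p = 6.87e-09), -0.61 ± 0.15 (0.000908) and -1.25 ± 0.16 (3.27e-08). Between these lines the falls of DUSP1 differed by -0.03 ± 0.08 (edgeR adjusted p = 0.763) and those of SPRED1 by -0.09 ± 0.12 (0.574), which does not show that they were equal. DUSP6 in C4-2B less 22Rv1 gave 1.32 ± 0.71 (edgeR adjusted p = 0.113), on the few C4-2B reads named above, and passed without C4-2B knockdown 3 (1.77, 0.037) or control 2 (2.57, 0.0099). DUSP10 between C4-2B and 22Rv1 (0.49 ± 0.19, edgeR adjusted p = 0.0286) did not pass without C4-2B knockdown 2 (0.108), C4-2B control 2 (0.124), 22Rv1 knockdown 1 (0.0738), 22Rv1 knockdown 2 (0.0652) or 22Rv1 control 2 (0.100). SPRED1 in C4-2B less 22Rv1 gave 0.68 ± 0.18 (edgeR adjusted p = 0.00206), and 0.35 without C4-2B knockdown 3 (adjusted p = 0.0700). In C4-2B less DU145 it gave 0.59 ± 0.18 (edgeR adjusted p = 0.0062), and 0.27 without that library (adjusted p = 0.191).

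Members varied together only in part. With levels centred within each line, differences between lines in mean level drop out, while those in knockdown response remain. The highest Pearson correlations over the 18 libraries were then those of DUSP6 with SPRY2 (0.83), DUSP1 with DUSP4 (0.80), DUSP1 with SPRED1 (0.80) and DUSP10 with SPRY1 (0.77). Besides DUSP1 with SPRY1, the lowest were those of DUSP5 with SPRED2 (-0.78) and DUSP4 with SPRY1 (-0.69). Among 11285 other genes, those most like DUSP4 were DIRAS1 (0.97), PRKCSH (0.97) and MICALL1 (0.97), and those most like SPRY4 were TNFAIP8L1 (0.92), KLF10 (0.89) and NDRG2 (0.89). Those most like DUSP6 were PLEKHO1 (0.89), IGF2BP2 (0.81) and REEP2 (0.77), for which the sparse DUSP6 reads of C4-2B carry much noise. Libraries of a group share their treatment, line and batch, so these values are descriptive.

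Other transcripts of ERK output, listed from general knowledge and partly known to move in these data, mostly fell in 22Rv1. Of 20 such genes, 3 rose and 13 fell in 22Rv1 (20 tested), where 33.5% of all tested genes rose and 34.3% fell. The log2 fold changes of the 20 output genes had a median of -0.81 beside -0.0038 for all tested genes. EGR3, an immediate-early zinc finger factor, held 1.84 ± 0.426 CPM in 22Rv1 knockdown and 12.2 ± 0.867 CPM in control cells (-2.75 ± 0.16). EPHA4, an ephrin receptor, gave -1.52 ± 0.28 and the early factor EGR2 -1.46 ± 0.40, both under 3 CPM. The EGFR ligand AREG gave -1.51 ± 0.52 at 0.318 ± 0.242 CPM in knockdown and 0.878 ± 0.123 CPM in control cells, and its call was lost without knockdown 1, knockdown 2 or control 2 (edgeR adjusted p = 0.101, 0.0624 and 0.0573), while without knockdown 3 its fold change was -2.29. FOS, a subunit of the AP-1 factor, gave -1.36 ± 0.11 and the early factor EGR1 -1.04 ± 0.06 in 22Rv1; they are given here because the naming rule picked them in another line. Genes of 0.5 to 2 CPM in 22Rv1 had a median log2 fold change of -0.44, whose part in these low-level falls was not tested.

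In C4-2B, 8 of 13 tested output genes rose and 1 fell (median 0.22, beside 0.01 for all tested genes, of which 19.4% rose and 22.3% fell), and 7 were not tested. The rises numbered 6 with DESeq2 and without knockdown 1, knockdown 2, knockdown 3 or control 2. The falls numbered 2 without control 2 and in the fit of all 18 libraries. FOS held 2.34 ± 0.723 CPM in C4-2B knockdown and 0.834 ± 0.433 CPM in control cells (1.47 ± 0.43, edgeR adjusted p = 0.00696), a call lost without knockdown 2 (0.0642). The cytokine LIF rose by 1.00 ± 0.20 and the EGFR ligand HBEGF by 0.55 ± 0.17, while JUNB, another AP-1 subunit, fell by 0.47 ± 0.06. In DU145, 9 of 19 tested rose and 4 fell (median 0.12, beside 0.01 for all tested genes, of which 24.1% rose and 23.6% fell). IER3, an early response gene, held 63.2 ± 4.35 CPM in DU145 knockdown and 133 ± 4.75 CPM in control cells (-1.08 ± 0.05). FOS rose by 0.74 ± 0.18, the zinc finger factor EGR1 by 0.49 ± 0.07 and MYC by 0.44 ± 0.05 in DU145.

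**Figure D4:**
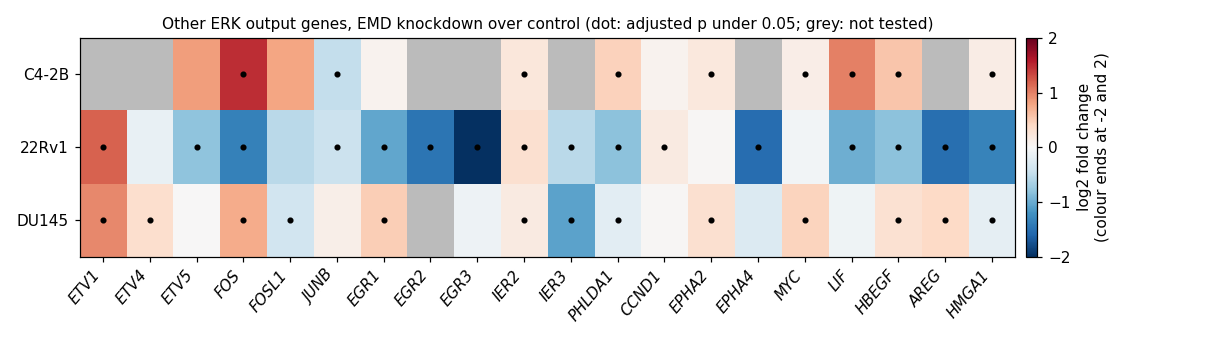
Log2 fold change of EMD knockdown over control for 20 other ERK output genes (columns) in each line (rows), red for higher and blue for lower in knockdown, with a dot where the edgeR adjusted p was below 0.05 and grey where a gene was not tested. In 22Rv1 13 of the genes fell and 3 rose, in C4-2B 1 fell and 8 rose, and in DU145 4 fell and 9 rose.

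Among 16 other brakes of the pathway, 5 rose and 3 fell in C4-2B (median 0.04), 4 rose and 5 fell in 22Rv1 (-0.04), and 4 rose and 6 fell in DU145 (-0.02), with 16 tested in each. Of all tested genes, 41.7%, 67.8% and 47.6% were called in these lines, with medians of 0.01, -0.0038 and 0.01. The rises in C4-2B numbered 3 without control 2, the falls in 22Rv1 9 with library totals, and the rises in DU145 2 with DESeq2 and without knockdown 2. SPRED3, the third Spred gene, held 6.04 ± 0.689 CPM in DU145 knockdown and 28.6 ± 2.69 CPM in control cells (-2.25 ± 0.09). In C4-2B it rose by 1.10 ± 0.33, a call lost without control 2 (edgeR adjusted p = 0.0567), and by 1.70 without control 3. ERRFI1, the EGFR inhibitor also known as MIG6, held 50.5 ± 1.93 CPM in 22Rv1 knockdown and 186 ± 7.00 CPM in control cells (-1.88 ± 0.05). DUSP2, a nuclear phosphatase of ERK and p38, fell by 1.08 ± 0.07 in C4-2B and rose by 1.71 ± 0.29 in DU145, the reverse of DUSP4 in both lines. In DU145 DUSP2 was low, at 1.89 CPM on 190 reads in knockdown and 0.565 CPM on 56 reads in control. DUSP16, a phosphatase of JNK and p38, rose by 0.42 ± 0.05 in C4-2B, 0.65 ± 0.04 in 22Rv1 and 0.22 ± 0.07 in DU145. DUSP8, of the same substrates, rose in C4-2B (0.39 ± 0.07) and fell in 22Rv1 (-0.63 ± 0.06). It also fell in DU145 (-1.05 ± 0.21), where it was low, at 1.38 CPM in knockdown and 2.84 CPM in control cells. IL17RD, a receptor-like inhibitor of FGF signalling also known as SEF, fell by 0.91 ± 0.09 in 22Rv1. The ubiquitin ligase CBL, a partner of SPRY2, fell by 1.06 ± 0.06 in DU145.

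Of 20 genes of the RAS-ERK cascade itself, all tested, 5 rose and 6 fell in C4-2B (median 0.02), 9 rose and 7 fell in 22Rv1 (0.07), and 4 rose and 8 fell in DU145 (-0.10), where 41.7%, 67.8% and 47.6% of all tested genes were called; 3 rose in C4-2B without knockdown 3 or control 3. KSR1, the scaffold that joins RAF, MEK and ERK, rose in C4-2B (1.01 ± 0.20) and fell in 22Rv1 (-1.55 ± 0.13) and DU145 (-0.83 ± 0.09), so its direction in each line was that of DUSP1 and DUSP4. The ribosomal S6 kinase gene RPS6KA2 fell in 22Rv1 (-0.95 ± 0.09) and DU145 (-1.77 ± 0.06). In C4-2B, MAPK3, which encodes ERK1, fell by 0.29 ± 0.07 and the adaptor SHC1 fell by 0.25 ± 0.04. In 22Rv1, HRAS held 76.9 ± 4.58 CPM in knockdown and 42.04 ± 4.39 CPM in control cells (0.89 ± 0.07), and the docking protein gene GAB1 fell by 0.81 ± 0.12. MAP2K1, which encodes MEK1, held 68.1 ± 3.97 CPM in DU145 knockdown and 112 ± 3.86 CPM in control cells (-0.72 ± 0.05), and the RAF kinase gene BRAF fell by 0.66 ± 0.06 there.

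Of 10 receptors upstream, 4 rose and 2 fell in C4-2B (median 0.01), and 3 rose and 5 fell in both 22Rv1 (-0.21) and DU145 (-0.13), where 41.7%, 67.8% and 47.6% of all tested genes were called; 1 fell in C4-2B without knockdown 3, and 3 fell in DU145 without knockdown 1 or control 3. IGF1R, the insulin-like growth factor receptor, fell in C4-2B (-1.37 ± 0.06) and 22Rv1 (-1.67 ± 0.07). FGFR4, a fibroblast growth factor receptor, rose in C4-2B (0.65 ± 0.14) and DU145 (0.46 ± 0.06) and fell in 22Rv1 (-1.53 ± 0.09). FGFR2, of the same family, rose by 0.50 ± 0.11 in C4-2B. In 22Rv1 it was near the limit of detection, with 4 reads in knockdown and 45 in control libraries (-2.99 ± 0.73, edgeR adjusted p = 0.00118), and without control 1 it was too low to be tested. EGFR held 1523 ± 14.7 CPM in 22Rv1 knockdown and 893 ± 67.5 CPM in control cells (0.77 ± 0.04). MET, the receptor of hepatocyte growth factor, fell by 0.51 ± 0.17 in C4-2B, a call lost without knockdown 3 (edgeR adjusted p = 0.0741). In DU145, FGFR3 rose by 1.36 ± 0.16, while the insulin receptor gene INSR fell by 0.49 ± 0.07 and ERBB2 fell by 0.45 ± 0.05.

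Of 12 genes of the JNK and p38 branches, on which DUSP1 and DUSP10 also act, 4 rose and 1 fell in C4-2B (11 tested, median 0.03), 1 rose and 6 fell in 22Rv1 (11 tested, -0.20), and 3 rose and 6 fell in DU145 (12 tested, -0.08), where 41.7%, 67.8% and 47.6% of all tested genes were called. Of these, 2 fell in C4-2B without knockdown 3 and in the fit of all 18 libraries, and 0 rose in 22Rv1 with library totals and in that fit. JUN, the AP-1 subunit that JNK phosphorylates, rose in C4-2B (0.59 ± 0.05) and fell in 22Rv1 (-0.42 ± 0.04) and DU145 (-1.40 ± 0.05). MAPK11, which encodes p38 beta, fell in 22Rv1 (-0.48 ± 0.09) and DU145 (-1.51 ± 0.12) and rose in C4-2B (0.30 ± 0.09), where the call was lost without knockdown 3 or control 2 (edgeR adjusted p = 0.0565 and 0.0533). MAPK13, which encodes p38 delta, rose in C4-2B (0.42 ± 0.07) and fell in DU145 (-0.82 ± 0.05). MAPK9, which encodes JNK2, fell by 0.39 ± 0.05 in C4-2B, and also fell in 22Rv1 (-0.20 ± 0.05) and DU145 (-0.34 ± 0.06). In 22Rv1 the p38 activator gene MAP2K3 fell by 0.33 ± 0.04 and MAPK8, which encodes JNK1, fell by 0.23 ± 0.06, and in DU145 MAPK12, which encodes p38 gamma, fell by 0.38 ± 0.07.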

How the data were processed

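Gene-level RNA-seq counts of 18 libraries in 6 groups were analysed. The submitters' processing notes name STAR, RSEM 1.3.1 and GRCh38. The deposited values are expected counts per gene as whole numbers; annotation release, strandedness and rounding are not given in the sources used here. Spike-in entries (92) and second copies of pseudoautosomal genes (30) of the DU145 table were left out. Each line was tested in edgeR 4.0.16 (R 4.3.3) with filterByExpr (minimum count 10, minimum total 15), TMM scaling and the robust quasi-likelihood F test, with Benjamini-Hochberg adjustment over 15801 genes in C4-2B, 16656 in 22Rv1 and 19377 in DU145. SE was taken as the log2 fold change divided by the root of its F value. Differences between lines used 1 coefficient per group over the 18445 genes of all tables, filtered to 17152. DESeq2 1.42.0, other scalings, no filter, a replicate block and leaving out each library were the alternatives. Correlations used log2 CPM with a prior count of 2. Scripts were tested on simulated data. Pairs of replicate libraries differed by more than counting noise (chi-square per degree of freedom 2.28 to 8.70). Exon lengths and positions come from GENCODE 29 on GRCh38, which may not be the release the submitters counted with.

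The members and gene lists were chosen with earlier results of these data known. All members were named; of each list, up to 4 called genes with the largest change and no overlap between groups, apart from genes that are not reported here. The members' p-values are adjusted over all genes tested, never over the list.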

Additional observations from a re-analysis of the deposited data

Results flagged for a closer look

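The 20 differences between lines below were flagged because the test of the difference itself passed (edgeR, 1 fit of all 18 libraries, adjusted p below 0.05); each value is a difference of log2 fold changes. In C4-2B less 22Rv1, DUSP1 gave 1.22, DUSP4 3.13, DUSP5 2.96, DUSP10 0.49, SPRED1 0.68 and SPRED2 -0.77. In C4-2B less DU145, DUSP1 gave 1.19, DUSP4 5.91, DUSP10 -0.66, SPRY1 -0.65, SPRY4 -1.05 and SPRED1 0.59. In 22Rv1 less DU145, DUSP4 gave 2.78, DUSP5 -2.72, DUSP6 -1.27, DUSP10 -1.14, SPRY1 -0.47, SPRY2 -0.61, SPRY4 -1.25 and SPRED2 0.81. These contrasts share groups with one another, and line, batch and table cannot be told apart in them. Single outlying libraries were not tested for in groups of 3. By the chi-square between replicates, knockdown 3 of DU145 stood apart from knockdown 1 and 2 (5.27 and 6.14, beside 2.28 between those libraries). The control libraries of 22Rv1 differed from one another by 5.32 to 8.70.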

How the results depend on the processing

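The count of members that rose in 22Rv1 was 2, and 1 with library totals, without a filter, with DESeq2 and with a replicate block; without single libraries it was 1 to 2. The member that left was SPRY1 each time. The count that fell in C4-2B was 1, and 0 to 1 without single libraries. Counts of called genes and the other counts of members stayed within 1.5 times under every alternative run. Within that limit, the count that rose in C4-2B was 3, and 2 with DESeq2 and with a replicate block. It was also 2 without knockdown 2, knockdown 3 or control 2, and the member that left was DUSP10 each time. Signs turned for values that did not pass in any of these fits. In C4-2B these were SPRY2 (0.055 without knockdown 3, 0.12 without control 2; range without single libraries -0.36 to 0.12) and SPRED1 (-0.24 and -0.0053 without the same libraries; range -0.24 to 0.26); in 22Rv1 it was DUSP10 (0.063 without control 2; range -0.13 to 0.063). For C4-2B less DU145 they were DUSP6 (-0.042 with a replicate block; -0.86, -0.38, -0.26 and -0.0027 without C4-2B knockdown 1, control 1, control 3 or DU145 control 2; range -0.86 to 1.299) and SPRED2 (-0.030 without C4-2B knockdown 3, -0.00034 without DU145 control 2; range -0.030 to 0.13). For 22Rv1 less DU145 it was DUSP1 (0.0018 without DU145 control 1; range -0.085 to 0.0018). The cause was not tested. Library totals moved the share of rises among called genes in C4-2B to 57.0% (46.6% with the trimmed mean). Replicate numbers did not clearly pair the libraries (correlation of same-numbered deviations -0.15 to 0.18, of others -0.15 to 0.12), and not every library was closest to its own number. With 3 libraries per group, this check cannot exclude pairing. The replicate block moved no count of called genes by over 1.5 times. With it the edgeR adjusted p was 0.0545 for DUSP10 in C4-2B and 0.0575 for SPRY1 in 22Rv1. Depth limits DUSP6, SPRY4, SPRY2 and DUSP5 in C4-2B. The alternatives for EMD and for genes of the lists were chosen after seeing the data.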
